A study of Mus musculus with 9 samples.

Results

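The 10 genes described here encode calcineurin subunits, the RCAN regulators of calcineurin, the NFAT transcription factors and the calcineurin anchor Myoz2. They were taken by symbol from a table of 16698 genes, and all 10 were present and passed the filter on low values, under which 13712 genes were tested. RNA came from the left ventricle of ICR/CD1 mice at postnatal day 14, with 3 libraries from sham-operated mice, 3 from mice with transverse aortic constriction (TAC, a ligature that narrows the aortic arch) at postnatal day 7, and 3 from mice with TAC at postnatal day 1. No group carries a named transgene or other treatment, and the day of the sham operation is not stated. By these days load lasted 13 days after day-1 TAC and 7 days after day-7 TAC. The day-1 TAC titles (14dp1dTAC) can also be read as 14 days after surgery. In either case the age at surgery and the time under load cannot be told apart. Whether the 3 libraries of each group are from different animals is not stated, so p-values measure only the spread between these samples, which may be technical in part.

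Calcineurin is a protein phosphatase that calcium and calmodulin switch on. It consists of a catalytic subunit (encoded by Ppp3ca, Ppp3cb or Ppp3cc) and a regulatory, calcium-binding subunit (Ppp3r1). It removes phosphate from NFAT proteins, which then enter the nucleus and act with partners such as GATA4 and MEF2, and kinases such as GSK3 and DYRK send them back out. RCAN proteins bind calcineurin and restrain it, and Myoz2 (calsarcin) holds it at the Z-disc of cardiac muscle. In the heart the pathway is known for its part in pathological growth under pressure load. The internal start of Rcan1 is itself an NFAT target and is widely read as a sign of calcineurin activity.

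The promoters of Rcan1 are shown because Rcan1 was the gene of the 10 that differed most from sham. The gene lies on the minus strand of chromosome 16 from 92391953 to 92470867 (GRCm38, the mm10 build the submitters name). The RefSeq promoter table (GRCm38.p6) gives it 2 starts, each with 250 bases before and 50 after. Capitals mark the NFAT core GGAAA, searched on both strands.
Upstream start, chr16:92466120-92466419: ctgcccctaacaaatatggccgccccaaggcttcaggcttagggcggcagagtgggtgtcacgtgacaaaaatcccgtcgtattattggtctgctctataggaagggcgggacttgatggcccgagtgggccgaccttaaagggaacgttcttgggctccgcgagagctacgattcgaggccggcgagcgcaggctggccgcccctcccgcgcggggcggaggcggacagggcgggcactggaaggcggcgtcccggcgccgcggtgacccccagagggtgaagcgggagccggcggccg
Internal start, chr16:92400029-92400328: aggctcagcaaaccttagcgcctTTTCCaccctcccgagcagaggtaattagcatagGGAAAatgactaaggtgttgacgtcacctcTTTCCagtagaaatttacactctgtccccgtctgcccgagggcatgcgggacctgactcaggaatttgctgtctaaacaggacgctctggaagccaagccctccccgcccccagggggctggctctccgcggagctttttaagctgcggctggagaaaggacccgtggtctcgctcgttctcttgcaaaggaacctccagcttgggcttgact
The upstream window held 0 matches and the internal window 3. Among the 32851 promoters listed, all of this length, 61.3% held at least 1 match and 9.4% held 3 or more, so the letters alone are common. Of the other genes with an entry, Ppp3cb had 4 matches, Nfatc4 had 3, Myoz2 had 2 and Ppp3r1 had 0. Rcan2 had 2, 0 and 0 at its 3 listed starts, Nfatc2 had 3 and 1, and Nfatc3 had 1 and 0. The deposited values are per gene, so reads from the upstream and internal starts of Rcan1 are summed and cannot be told apart.

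Values are the deposited log2 values, which the file headers name TMM, and every library has nearly the same median. Recovered depth was 18538900 to 26529531 reads per library. Ventricular cardiomyocyte markers (7 of 7 in the table) summed to 114000 to 120000 on the linear scale in sham, against 221 to 327 for atrial markers. The lists hold different genes of unlike abundance, so these sums do not test whether the tissue is ventricle. Myh6 alone held 60179 of the ventricular marker sum in sham replicate 1. Of the 7, 1 was higher and 2 were lower with each operation, where 34.8% of all genes were called with day-1 TAC and 28.9% with day-7 TAC. The sum was 96500 to 106000 with day-7 TAC and 81800 to 107000 with day-1 TAC. Day-1 TAC replicate 3 stood apart in sex-linked genes, with 10532 Xist reads against at most 40 in the other libraries. It held 18 Ddx3y reads against at least 3312. The day-1 TAC libraries therefore did not all come from 1 animal. By these genes replicate 3 is of female type and all other libraries are of male type, so comparisons with day-1 TAC are not balanced for sex. The part of sex in the results was not tested. On the deposited scale 41.1% of the genes called with day-1 TAC against sham were higher. With recovered reads scaled to the library total this share was 60.1%, and the median over all genes was 0.065 in place of -0.036. The shares were 47.7% and 59.7% for day-7 TAC against sham, and 38.5% and 50.3% between the TAC groups. Trimmed-mean scaling of recovered reads and quantile normalization lay between these. They gave 48.5% and 50.7% for day-1 TAC against sham, with a median of 0.003 for each. For day-7 TAC against sham they gave 50.2% and 51.3%, and between the TAC groups 46.2% and 48.5%.

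Between day-1 TAC and sham, 3 of the 10 genes were called at an adjusted p under 0.05 (limma, Benjamini-Hochberg over all genes tested): Rcan1 was higher, and Ppp3ca and Nfatc2 were lower. Of all genes tested 34.8% were called, 14.3% as higher and 20.5% as lower, so the count of 3 is close to the background. Between day-7 TAC and sham 4 of 10 were called, with Rcan1 higher and Rcan2, Ppp3cb and Nfatc2 lower, against 28.9% of all genes (13.8% higher and 15.1% lower). Between the TAC groups Rcan2 and Nfatc2 were higher with day-1 TAC and none was lower, against 16.7% of all genes (6.42% higher and 10.3% lower). The groups did not overlap for 7, 5 and 5 of the 10 genes in these comparisons, where the shares over all genes were 48.0%, 46.7% and 38.9%. The limma F test over the 3 groups called 4 of 10 genes (Rcan1, Rcan2, Nfatc2 and Ppp3cb) and 44.4% of all genes. The median log2 fold change of the 10 genes was -0.16, -0.13 and 0.01, beside -0.04, -0.01 and -0.03 for all genes tested. Both TAC comparisons use the same sham libraries.

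**Figure D1:**
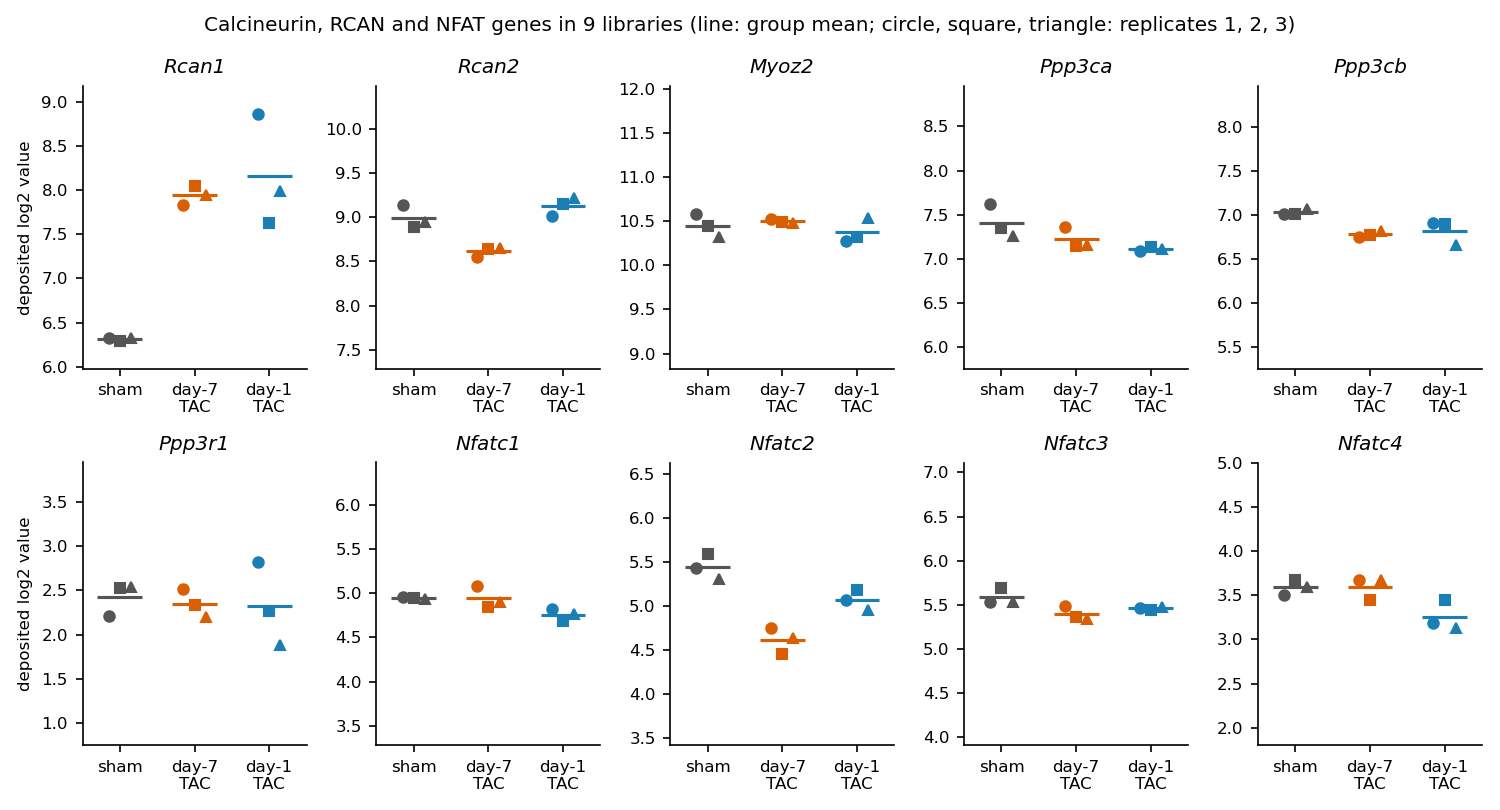
Deposited log2 value of each of the 10 genes in each library, by group, with group means as lines and replicates 1, 2 and 3 as circle, square and triangle. Every panel spans the same log2 range about its own centre, and Rcan1 is the panel in which all 6 TAC libraries lie more than 1 log2 unit above all 3 sham libraries.

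Rcan1 rose with both operations. Sham libraries held 6.33, 6.29 and 6.33 on the log2 scale, day-7 TAC libraries 7.83, 8.05 and 7.95, and day-1 TAC libraries 8.87, 7.63 and 7.98. The sham values were tightly grouped and none of the TAC values reached down to them, while the day-1 TAC values spread on both sides of the day-7 TAC values. In recovered reads this was 1543 to 2006 in sham, 5082 to 5471 with day-7 TAC and 4028 to 9798 with day-1 TAC. The rise was 3.59-fold after day-1 TAC (1.84 on the log2 scale, SE 0.24, adjusted p = 0.000478) and 3.09-fold after day-7 TAC (1.63, SE 0.24, adjusted p = 0.00104), by limma. The call held under all 19 alternatives in each comparison, with log2 fold changes of 1.49 to 2.11 and of 1.58 to 1.68.

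Day-1 TAC replicate 1 set the top of the Rcan1 range, at 8.87 against 7.98 in the next day-1 TAC library. Without it the rise over sham was 1.49 (adjusted p = 0.000102). Between the TAC groups Rcan1 differed by 0.22 (SE 0.24, adjusted p = 0.562, 95% interval -0.31 to 0.74), and by -0.14 without that library. That replicate also held the highest value of Acta1, the skeletal alpha-actin gene that returns under load, at 11.5 against 10.2 and 10.12.

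Rcan2, the next gene of the RCAN family, had another pattern. Its values were 9.14, 8.90 and 8.94 in sham, 8.55, 8.64 and 8.65 after day-7 TAC, and 9.01, 9.15 and 9.22 after day-1 TAC. All day-7 TAC libraries lay below all others, and the sham and day-1 TAC libraries overlapped. Rcan2 fell by 0.38 on the log2 scale with day-7 TAC (SE 0.09, adjusted p = 0.00868), which leaves it at 0.768 of the sham level. With day-1 TAC it stood at 0.13 (SE 0.09, adjusted p = 0.249, 95% interval -0.06 to 0.32). The direct test between the TAC groups gave 0.51 (SE 0.09, adjusted p = 0.00474), 1.43-fold higher with day-1 TAC. In each comparison 1 of the alternatives changed the side of the threshold. A required minimum fold change of 1.2 ended both calls, and scaling to the library total turned the day-1 TAC value into a call (0.23, adjusted p = 0.0482).

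The balance of the RCAN genes within a library does not depend on how libraries are scaled. Rcan1 minus Rcan2 was -2.81, -2.60 and -2.62 in sham, -0.72, -0.59 and -0.70 after day-7 TAC, and -0.14, -1.52 and -1.24 after day-1 TAC. Each TAC library lay above each sham library. The mean moved by 2.01 with day-7 TAC and by 1.71 with day-1 TAC, and an exact two-sided permutation test gave p = 0.1 for each, which is the smallest value that 3 against 3 libraries allow (adjusted p = 0.18 over 18 such tests). The day-1 minus day-7 TAC difference was -0.30 (exact permutation p = 0.5), and -0.71 without day-1 TAC replicate 1. Per kilobase of exon, Rcan2 stood above Rcan1 in sham (6.87 ± 0.13 against 4.69 ± 0.02, SD, n = 3), and in day-1 TAC replicate 1 the order was reversed, at 6.88 for Rcan2 and 7.24 for Rcan1. Rcan3, the third gene of the family, was at 1.62 ± 0.06 per kilobase in sham and was called in none of the comparisons (log2 fold changes 0.11, 0.03 and 0.08).

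**Figure D2:**
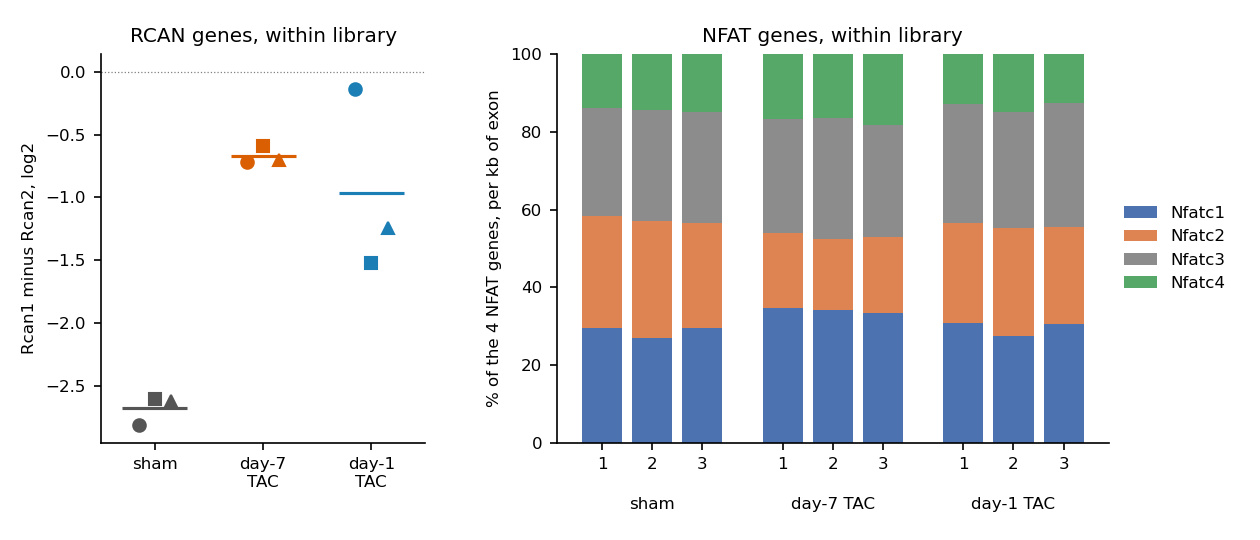
Left, Rcan1 minus Rcan2 (log2) in each library, with group means as lines and replicates 1, 2 and 3 as circle, square and triangle. Right, share of each of the 4 NFAT genes in their sum per kilobase of exon in each library, where the Nfatc2 share is smallest in the 3 day-7 TAC libraries (18.4% to 19.6%).

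Of the catalytic subunit genes, Ppp3ca was called lower with day-1 TAC alone and Ppp3cb with day-7 TAC alone, and neither call was stable. Ppp3ca, which encodes the alpha catalytic subunit, had values of 7.62, 7.35 and 7.26 in sham, 7.37, 7.14 and 7.15 after day-7 TAC, and 7.09, 7.14 and 7.11 after day-1 TAC. The day-1 TAC libraries lay below all others, while day-7 TAC overlapped with sham. With day-1 TAC Ppp3ca fell by 0.30 (SE 0.10, adjusted p = 0.0378), a call that was lost in 12 of 19 alternatives. They include scaling to the library total, trimmed-mean scaling and quantile normalization. They also include leaving out sham replicate 1 or 2, day-7 TAC replicate 3 or any day-1 TAC library (adjusted p up to 0.884 over all alternatives). With day-7 TAC it stood at -0.19 (SE 0.10, adjusted p = 0.167).

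Ppp3cb, the beta catalytic subunit gene, had values of 7.01, 7.01 and 7.06 in sham, 6.75, 6.77 and 6.81 after day-7 TAC, and 6.91, 6.89 and 6.66 after day-1 TAC. Both TAC groups lay wholly below sham. It fell by 0.25 with day-7 TAC (SE 0.08, adjusted p = 0.0322), and 9 of 19 alternatives lost that call, among them leaving out any sham or any day-7 TAC library. With day-1 TAC it stood at -0.21 (SE 0.08, adjusted p = 0.0538) and passed the threshold in 2 alternatives (lowest adjusted p = 0.0364), of which 1 left out day-1 TAC replicate 1. The TAC groups were not told apart by the test for either gene, with 95% intervals of -0.32 to 0.11 for Ppp3ca and -0.13 to 0.21 for Ppp3cb. Ppp3ca minus Ppp3cb was 0.38 ± 0.21 in sham, 0.44 ± 0.15 with day-7 TAC and 0.29 ± 0.14 with day-1 TAC (SD, n = 3). Against sham their balance moved by less than its spread. Between the TAC groups it moved by -0.15, about the size of the SDs (exact permutation p = 0.3).

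Ppp3cc, the third catalytic gene, rose by 0.30 with day-1 TAC (SE 0.09, adjusted p = 0.0218) and stood at 0.11 with day-7 TAC (adjusted p = 0.354). Per kilobase of exon the catalytic genes had similar sham levels, at 4.09 ± 0.19 for Ppp3ca, 3.89 ± 0.03 for Ppp3cb and 3.89 ± 0.13 for Ppp3cc (log2, SD, n = 3). Ppp3r1, whose product every calcineurin holoenzyme of the heart needs, was listed far lower, at 0.74 ± 0.19 per kilobase and 71 to 148 reads per library. Of its 50-base stretches 13.0% also occur in transcripts of Wdr92, a neighbour on the same strand that shares 462 exonic bases with it. Its level is therefore uncertain. Whether this overlap accounts for the low level was not tested. Ppp3r1 values were 2.21, 2.53 and 2.54 in sham, 2.52, 2.34 and 2.20 after day-7 TAC, and 2.82, 2.27 and 1.88 after day-1 TAC, so the groups overlapped throughout. Its log2 differences from sham were -0.11 (95% interval -0.60 to 0.39) and -0.08 (-0.57 to 0.41), so a change within these intervals was not detectable at this depth.

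Nfatc2 fell with both operations, and further with day-7 TAC. This NFAT gene, on chromosome 2 from 168476410 to 168601657, had values of 5.43, 5.59 and 5.31 in sham, 4.75, 4.46 and 4.63 after day-7 TAC, and 5.07, 5.19 and 4.96 after day-1 TAC. The 3 groups formed 3 separate ranges with day-1 TAC in the middle. The log2 fold change was -0.83 with day-7 TAC (SE 0.11, adjusted p = 0.000554), that is 0.563 of the sham level, and the call held under all 19 alternatives (-0.90 to -0.75). With day-1 TAC it was -0.37 (SE 0.11, adjusted p = 0.0209), and 4 of 19 alternatives lost the call: scaling to the library total, a minimum fold change of 1.2, and leaving out sham replicate 2 or day-1 TAC replicate 3. Between the TAC groups Nfatc2 was higher with day-1 TAC by 0.46 (SE 0.11, adjusted p = 0.0176). Of 21 alternatives 4 lost it, among them a minimum fold change of 1.2 and leaving out day-7 TAC replicate 2 or day-1 TAC replicate 2 (0.38 to 0.53, adjusted p up to 0.464 over all alternatives).

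Nfatc2 is known from lymphocytes and is also expressed outside them, so marker genes of other cell types are given beside it. For the counts below, 14.3% of all genes were higher and 20.5% lower with day-1 TAC, and 13.8% and 15.1% with day-7 TAC. In day-1 against day-7 TAC these shares were 6.42% and 10.3%. The 8 lymphocyte markers together summed to 39 to 112 reads per library in sham, 71 to 123 with day-7 TAC and 54 to 85 with day-1 TAC. Nfatc2 held 761 to 1237 reads in sham, and reads of different genes do not give the share of a cell type. Of 7 endothelial and endocardial markers 4 fell with each operation (Cdh5, Tek, Npr3 and Cytl1), 1 rose with day-7 TAC (Kdr), and their summed level was 1310 to 1360 in sham, 1210 to 1260 with day-7 TAC and 1190 to 1260 with day-1 TAC. Between the TAC groups 0 of these 7 were called. Macrophage markers summed to 125 to 165 in sham, 102 to 131 with day-7 TAC and 135 to 195 with day-1 TAC. Of these 6, 1 was higher with day-1 TAC, 2 were lower with day-7 TAC, and 4 were higher in day-1 against day-7 TAC. Fibroblast markers summed to 1930 to 2510 in sham, 2170 to 2560 after day-7 TAC and 2680 to 3520 after day-1 TAC, and 3 of 6 were higher and 1 lower with day-1 TAC, none with day-7 TAC. Of 3 nerve and Schwann cell markers tested, 3 fell with day-1 TAC (median -1.04) and 2 with day-7 TAC (median -1.07), and the 4 in the table summed to 29.5 to 30.8 in sham, 21.1 to 23.7 after day-7 TAC and 13.8 to 22.1 after day-1 TAC. The part of these cell types in the Nfatc2 result was not tested, and in bulk tissue fewer cells of a type and less RNA per cell cannot be told apart.

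The other NFAT genes moved less. Nfatc1, known for its role in the endocardium and valves, lay at 4.96, 4.95 and 4.93 in sham, 5.08, 4.85 and 4.90 after day-7 TAC, and 4.82, 4.68 and 4.76 after day-1 TAC. The day-1 TAC libraries were below all others, and the difference from sham of -0.19 (SE 0.08, adjusted p = 0.0998) did not pass the test. Nfatc3, which transduces calcineurin signals in cardiomyocytes, ranged from 5.34 to 5.69 over all 9 libraries (1.7% of its 50-base stretches occur elsewhere, mostly in Esrp2 on the opposite strand), with log2 differences from sham of -0.12 (adjusted p = 0.223) and -0.19 (adjusted p = 0.0783). Its groups with TAC both lay below sham, by less than the test could call.

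Nfatc4, another cardiomyocyte NFAT gene and a classic partner of GATA4, had values of 3.50, 3.68 and 3.59 in sham, 3.67, 3.44 and 3.67 after day-7 TAC, and 3.19, 3.44 and 3.13 after day-1 TAC. The day-1 TAC libraries lay just below the rest. The difference from sham was -0.34 (SE 0.12, adjusted p = 0.0522) and became a call in 5 of 19 alternatives (lowest adjusted p = 0.0277), among them leaving out day-1 TAC replicate 2. With day-7 TAC it was 0.01 (95% interval -0.26 to 0.28). Between the TAC groups it was -0.34 (SE 0.12, adjusted p = 0.0748), and without day-1 TAC replicate 2 this became a call as well (-0.44, adjusted p = 0.049).

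Per kilobase of exon Nfatc1, Nfatc2 and Nfatc3 had nearly equal sham levels, 2.05 ± 0.01, 2.04 ± 0.14 and 2.03 ± 0.09 (log2, SD, n = 3), which do not differ beyond their spread, and Nfatc4 was lower at 1.05 ± 0.09. Nfatc2 made up 28.6% ± 1.42 of the 4 genes in sham, 19.2% ± 0.69 with day-7 TAC and 26.1% ± 1.44 with day-1 TAC. The day-7 TAC share lay apart from both others (exact permutation p = 0.1 against each, the smallest possible, adjusted p = 0.18), and the share with day-1 TAC overlapped with sham (exact permutation p = 0.2). Nfatc1 took 28.7% ± 1.4, 34.0% ± 0.66 and 29.7% ± 1.83, and Nfatc4 took 14.4% ± 0.57, 17.2% ± 0.98 and 13.5% ± 1.33, in the same order of groups. As shares of a sum, these values move against each other by construction. Nfat5, the calcium-independent relative, was at 3.12 ± 0.23 per kilobase in sham and was called in none of the comparisons.

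Myoz2 was the highest of the 10 genes per kilobase (8.67 ± 0.13 in sham, log2, SD, n = 3). Values were 10.58, 10.44 and 10.32 in sham, 10.52, 10.49 and 10.48 after day-7 TAC, and 10.28, 10.32 and 10.53 after day-1 TAC, so all groups overlapped. Its log2 differences were -0.07 (95% interval -0.28 to 0.15) with day-1 TAC and 0.05 (-0.16 to 0.26) with day-7 TAC. In sham, Rcan2 followed in the order of levels per kilobase, then Rcan1, Ppp3ca, Ppp3cb, the 3 NFAT genes at nearly equal level, Nfatc4 and Ppp3r1. Ppp3ca and Ppp3cb differed there by about the SD of Ppp3ca.

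**Figure D3:**
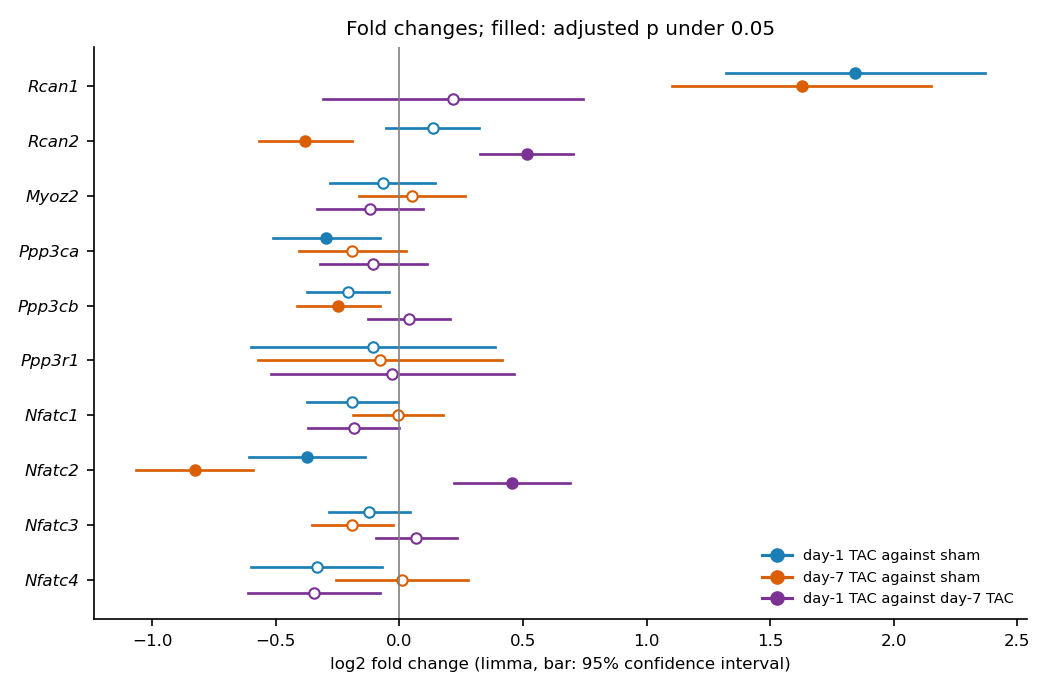
Log2 fold change of each gene in the 3 comparisons (limma, point) with its 95% confidence interval (bar), filled where the adjusted p was under 0.05. Only Rcan1 lies beyond 1 log2 unit, with 1.84 and 1.63 against sham, and Nfatc2 follows at -0.83 with day-7 TAC.

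Among other genes that encode or regulate calcineurin, 14 of 17 listed genes were tested. Of these, 4 rose and 1 fell with day-1 TAC, 3 rose and 1 fell with day-7 TAC, and 0 were higher and 1 lower between the TAC groups (medians 0.16, 0.12 and 0.08). Taken in both directions together, the counts against sham are close to the 34.8% and 28.9% of all genes called. By direction, 14.3% of all genes were higher and 20.5% lower with day-1 TAC, and 13.8% and 15.1% with day-7 TAC. Between the TAC groups 10.3% of all genes were lower. Calm2, which encodes calmodulin, stood at 0.20 with day-1 TAC (adjusted p = 0.0977) and rose by 0.39 with day-7 TAC (adjusted p = 0.00835). Of its 50-base stretches 9.72% also occur in other gene models, so these values are less certain. Fkbp1a, whose product is the target of the calcineurin inhibitor tacrolimus, rose by 0.33 (adjusted p = 0.0114) and by 0.24 (adjusted p = 0.0454), the latter lost in 10 of 19 alternatives (adjusted p up to 1.0), among them leaving out any sham or day-7 TAC library or day-1 TAC replicate 2. Chp2, a calcineurin B homologue, fell by 1.23 and 1.31 from a low sham level of 1.38.

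Kinases that act against NFAT were listed together with the exporter gene Xpo1. Of 12 genes 1 rose and 2 fell with day-1 TAC, and 2 rose and 0 fell with day-7 TAC. In day-1 against day-7 TAC 0 were higher and 5 lower (medians -0.12, 0.09 and -0.21 in this order). Of all genes 14.3% were higher and 20.5% lower with day-1 TAC, and 13.8% and 15.1% with day-7 TAC. In day-1 against day-7 TAC these shares were 6.42% and 10.3%. Dyrk1a, an NFAT priming kinase, rose by 0.52 with day-7 TAC (SE 0.09, adjusted p = 0.00246), stood at -0.01 with day-1 TAC, and was lower by 0.53 in the direct test (adjusted p = 0.0051). Dyrk2 was lower by 0.68 (adjusted p = 0.00947) and the casein kinase gene Csnk1a1 by 0.25 (adjusted p = 0.0257) in that comparison. The Csnk1a1 call was lost in 8 of 21 alternatives, among them leaving out any day-7 TAC library or day-1 TAC replicate 2 or 3 (adjusted p up to 1.0). Csnk1e fell by 0.50 with day-1 TAC (adjusted p = 0.00658).

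Genes of calcium entry were lower where they were called. Of 10 genes 4 fell with day-1 TAC and 2 with day-7 TAC, none rose, and 0 were called between the TAC groups (medians -0.15, -0.25 and -0.06). Of all genes 20.5% and 15.1% were called lower against sham, and 34.8% and 28.9% were called in either direction. Whether the list differs from these shares was not tested. Stim1, the store calcium sensor, fell by 0.88 (SE 0.14, adjusted p = 0.00114) and by 0.65 (SE 0.14, adjusted p = 0.00657). Trpc1 fell by 0.62 (adjusted p = 0.00189) and by 0.38 (adjusted p = 0.0229), the latter lost in 5 of 19 alternatives, including without sham replicate 2 or 3 or day-7 TAC replicate 1 or 2. With day-1 TAC the calcium channel genes Cacna1h and Cacna1c fell by 1.10 (adjusted p = 0.0341) and 0.59 (adjusted p = 0.0344). These calls were lost in 6 of 18 and 7 of 19 alternatives, with adjusted p up to 0.13 and 0.26. For Cacna1h they included leaving out sham replicate 2 or 3 or day-1 TAC replicate 1 or 3, and for Cacna1c sham replicate 1 or 2.

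Nuclear partners of NFAT and of calcineurin targets formed a further list, which also held the ubiquitin ligase genes Fbxo32 and Trim63 and the kinase gene Camk2d. Of 16 genes 10 fell and 0 rose with day-1 TAC, 6 fell and 1 rose with day-7 TAC, and 3 were higher and 2 lower between the TAC groups (medians -0.45, -0.26 and -0.11). Of all genes 20.5% and 15.1% were lower with day-1 and day-7 TAC, and 14.3% and 13.8% were higher. Between the TAC groups 6.42% of all genes were higher and 10.3% lower. Hdac9, a repressor of MEF2, fell by 0.77 (SE 0.09) with day-1 TAC and by 1.86 (SE 0.09, adjusted p = 5.62e-06) with day-7 TAC, and was higher by 1.09 in the direct test (adjusted p = 0.000583). Fbxo32, the ubiquitin ligase atrogin, which is known to target calcineurin at the Z-disc, fell by 0.59 (adjusted p = 0.0105) and by 1.71 (adjusted p = 8.25e-05), and was higher by 1.13 in the direct test (adjusted p = 0.00154). Like Nfatc2, both were lowest with day-7 TAC. Foxo3 fell by 1.32 and 1.29, and Hdac5 by 0.81 and 0.90, with no difference called between the TAC groups (adjusted p = 0.892 and 0.641).

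Of 8 genes read as signs of hypertrophy 5 rose and 1 fell with day-1 TAC, 6 rose and 0 fell with day-7 TAC, and 1 was higher and 1 lower between the TAC groups (medians 1.59, 1.87 and -0.13). Of all genes 14.3% were higher and 20.5% lower with day-1 TAC, and 13.8% and 15.1% with day-7 TAC. Between the TAC groups these shares were 6.42% and 10.3%. Acta1 rose by 5.11 with day-1 TAC and 2.74 with day-7 TAC, and the natriuretic peptide genes Nppa by 2.80 and 3.29 and Nppb by 1.94 and 2.23, each more than Rcan1 (1.84 and 1.63) in both comparisons. Myh7, the fetal myosin gene, rose with day-7 TAC only (limma, adjusted p = 0.000848, 1.33 to 1.71 over the alternatives). With day-1 TAC Myh7 lay below sham and was not called (adjusted p = 0.139, -0.57 to -0.26 over the alternatives). Between the TAC groups Myh7 differed by -2.01 (adjusted p = 0.000707), beside 0.22 for Rcan1.

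**Figure D4:**
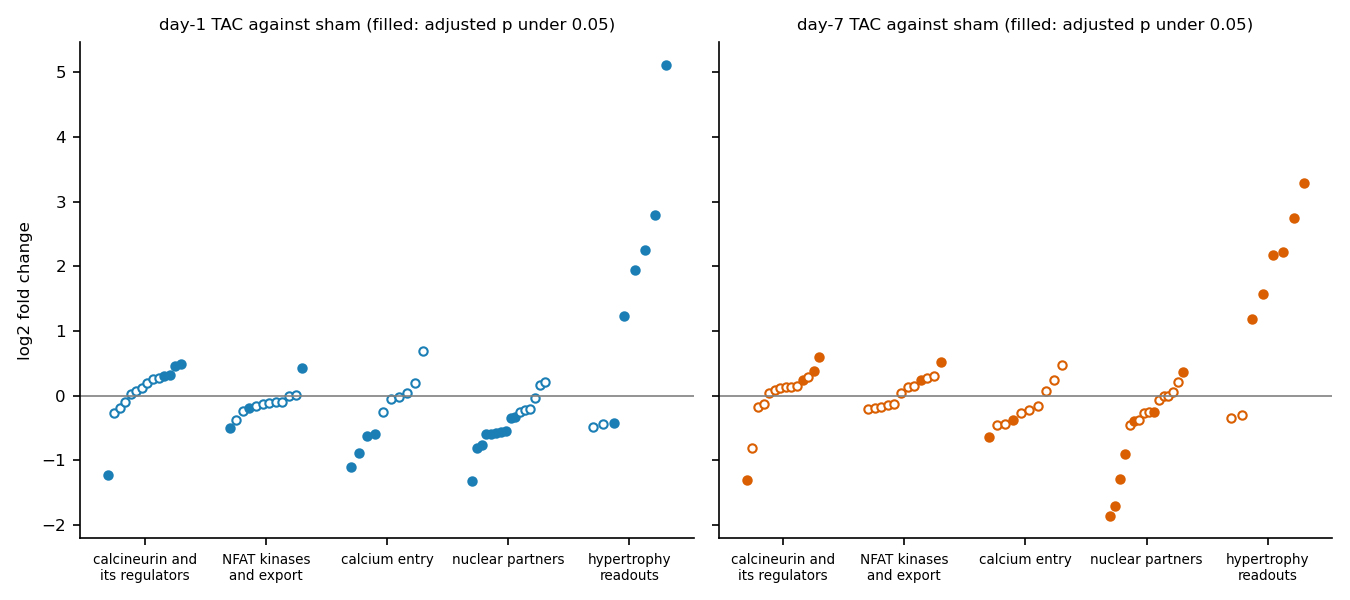
Log2 fold change against sham of the tested genes of 5 lists, ordered by value within each list, with day-1 TAC at left and day-7 TAC at right and filled points where the adjusted p was under 0.05. Hypertrophy readouts reach 5.11 and 3.29, while in the other lists Chp2, Cacna1h, Foxo3, Fbxo32 and Hdac9 alone lie beyond 1 log2 unit from 0 in either comparison.

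Across the 9 libraries the genes with the pattern most like Rcan1, by Pearson r among the 11108 tested genes whose mean log2 value was 2 or more, were Cald1 (0.981), Anxa1 (0.980), Mmp14 (0.980), Uck2 (0.978) and Adamts20 (0.977). They encode caldesmon, an annexin, a membrane metalloproteinase, a uridine-cytidine kinase and a secreted metalloproteinase. For Rcan2 they were Chchd10 (0.976), Mrpl42 (0.975), Mpc2 (0.969), Tmtc2 (0.968) and Cacna2d3 (0.964). Of these Chchd10, Mrpl42 and Mpc2 encode mitochondrial proteins, and each of the 5 lay below sham with day-7 TAC and above it with day-1 TAC. For Myoz2 they included Rhoj (0.967), Tmem243 (0.931), Dtd2 (0.924) and Ints4 (0.898). These correlations are descriptions over libraries that share the 3 group differences.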

How the data were processed

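Single-end reads of 50 cycles were made from purified mRNA, per the labels' protocols. The submitters' processing notes name STAR, Trim Galore, edgeR and mm10, without versions; the sources used here do not give the annotation, strand setting or filters. The deposited log2 values are given per gene symbol, and the file headers name them TMM. Their library medians differed by only 0.0026. Trimmed-mean scaling of the recovered reads gave other values, with a median over all genes of 0.003 in place of -0.036 for day-1 TAC against sham. Which scaling the submitters applied is therefore uncertain. On the linear scale 100.0% of each library's values were whole multiples of its lowest value (tolerance 0.001 reads), which was taken as 1 read; had a pseudocount of 1 read been added, each recovered number would be 1 too high. Of 16710 rows, 12 rows of 3 repeated symbols were left out.

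Genes above 0 in at least 3 libraries were tested with limma 3.58.1 (R 4.3.3), in 1 model of all 9 libraries with an intensity trend, two-sided. Ratios of genes within a library were compared by exact permutation. Lengths are exon unions of GENCODE release M21 (GRCm38), and promoters are from RefSeq (8 of 10 symbols matched). The steps were tested on simulated data. Alternatives covered pseudocount, filter, scaling, variance model, libraries in the fit, a minimum fold change of 1.2 and leaving out each library. All 10 genes are described; of each further list up to 4 genes with the smallest p, and for 3 genes the 5 most correlated genes; Ppp3cc, Rcan3, Nfat5 and single marker genes were named after their values were seen. A few genes that the rule gave are not reported here. The 10 genes and the lists were chosen with earlier results of these data known. Sham replicates 2 and 3 have the same column name, so these numbers follow column order and pair nothing.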

Additional observations from a re-analysis of the deposited data

Results flagged for a closer look

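For 2 genes the response to TAC differed between the days of surgery by a direct limma test. For Rcan2 the effect of day-1 TAC minus that of day-7 TAC was 0.51 on the log2 scale (adjusted p = 0.00474, 3 of 3 day-1 TAC libraries above all day-7 TAC libraries). For Nfatc2 it was 0.46 (adjusted p = 0.0176, likewise 3 of 3), a call lost in 4 of 21 alternatives. The Rcan2 call was lost in 1 of 21, a required minimum fold change of 1.2 (limma, adjusted p = 0.153).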

How the results depend on the processing

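Of 590 recomputed values of the 10 genes, 533 kept their direction and side of the threshold, 31 lost a call, 10 gained one and 16 changed sign. A required minimum fold change of 1.2 left 1428, 1066 and 273 genes called for day-1 TAC against sham, day-7 TAC against sham and day-1 against day-7 TAC, and 1, 2 and 0 of the 10 genes. Array weights gave 5 of the 10 with day-1 TAC and 5010 of all genes, against 3 and 4776. Deviations of same-numbered TAC libraries from their group means correlated at r = -0.19, -0.11 and -0.02, and those of differently numbered ones at -0.15 to 0.21. With 3 libraries per group this cannot exclude a pairing by number. With a replicate block the 6 TAC libraries gave 1167 genes called and 1 of the 10, against 2050 genes without the block; the Nfatc2 call ended with it (0.46, adjusted p = 0.0631, limma). No block could be made for the sham comparisons, since 2 sham columns carry the same number. The cause of these changes was not tested.

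Leaving out 1 library at a time gave 3259 to 4525 genes and 1 to 3 of the 10 for day-1 TAC against sham, 2594 to 4404 and 3 to 4 for day-7 TAC against sham, and 1261 to 2491 and 1 to 2 between the TAC groups.

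Changes of sign were small (largest size 0.19, smallest adjusted p 0.384, by limma) and concerned values that were not called. With reads scaled to the library total, day-1 TAC against sham gave 0.03 for Myoz2, 0.09 for Dyrk1a and 0.00 for Csnk1a1, day-7 TAC against sham gave 0.05 for Nfatc1, and day-1 against day-7 TAC gave 0.01 for Ppp3r1 and 0.01 for Foxo3. Trimmed-mean scaling gave 0.03 for Dyrk1a (day-1 TAC) and 0.01 for Nfatc1 (day-7 TAC), quantile normalization gave 0.10 for Dyrk1a (day-1 TAC) and 0.04 for Foxo3 (between the TAC groups), and array weights gave -0.02 for Nfatc4 (day-7 TAC). Leaving out 1 library gave these ranges across 0. For day-1 TAC against sham they were -0.36 to 0.11 for Ppp3r1 and -0.05 to 0.01 for Dyrk1a. For day-7 TAC against sham they were -0.07 to 0.04 for Nfatc1, -0.03 to 0.09 for Nfatc4 and -0.01 to 0.12 for Myoz2. Between the TAC groups they were -0.14 to 0.48 for Rcan1, 0.00 to 0.12 for Ppp3cb, -0.28 to 0.19 for Ppp3r1, -0.09 to 0.32 for Chp2, -0.14 to 0.04 for Foxo3 and -0.01 to 0.20 for Hdac5.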
